A study of Mus musculus with 4 samples.

Results

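The acinar-like cells described here are 553 of the 4602 cells that passed a filter in a single-cell RNA library made from intestinal epithelium of mouse embryos at embryonic day 17.5 (E17.5), a share of 12.02% (exact 95% interval 11.1 to 13.0, counting error only). Cells were kept when 500 or more genes were detected and mitochondrial genes held no more than 20% of their UMIs (unique molecular identifiers, the tags that count captured RNA molecules). A passing cell was called acinar-like where the digestive enzyme genes Cpa1, Ctrb1, Cela1, Prss2 and Cel together held at least 2% of its UMIs, so the levels of these enzymes and of the genes that go with them chose the cells and are given as a description. The study held 4 libraries with 15800 passing cells, 1 library for each of 4 groups: embryos of E12.5 and of E17.5, adult mice and adult mice after irradiation, all of genotype Bmi1-GFP, a reporter of the Polycomb gene Bmi1. The cells were sorted by flow cytometry as intestinal epithelium, and for embryos of this age the labels name the small intestine as the dissected tissue. The number and sex of the animals, the sorting gates and the dose and time of irradiation are not stated in the sources used here. With 1 library there was no replicate and no test, and every interval below covers counting error in that library.

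Acinar cells are the secretory cells of the exocrine pancreas. They make digestive enzymes, mostly as inactive precursors, pack them into zymogen granules at the apical side and release them into the duct when hormones such as cholecystokinin or nerves stimulate them. Their enzyme genes are driven by the PTF1 complex, in which the factor PTF1A binds a paired DNA site together with a common E protein and RBPJL, the acinar form of the Notch pathway factor RBPJ. In the mouse embryo pancreatic buds arise from the foregut next to the duodenum, and acinar cells fill with enzyme in the last days before birth while some still divide.

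The cells were checked against 4 markers. Ctrb1, which encodes chymotrypsinogen B, reached 85679 CPM (UMIs per 1000000 UMIs summed over the cells, 95% Poisson interval 85468 to 85890) in the acinar-like cells and 135 CPM in the 4049 other E17.5 cells. Cpa1, procarboxypeptidase A1, stood at 12207 CPM against 24.3 CPM, and Cel, the bile salt-stimulated lipase, at 2825 CPM against 5.02 CPM. Ptf1a, which the rule did not use, stood at 230 CPM (219 to 241, 1710 UMIs) against 0.878 CPM (61 UMIs). These 3′ UMIs count molecules whatever the length of the gene. At least 1 UMI was found in 100% of acinar-like cells for Ctrb1 and for Cpa1, in 99.5% for Cel and in 77.9% for Ptf1a. Of the 4 markers Ctrb1, Cpa1 and Cel are part of the rule, so only Ptf1a bears on the name acinar-like, which is kept. The tissue on the label was not seen in them to the same degree: the intestinal factor Cdx2 had a UMI in 5.61% of acinar-like cells and in 66.0% of other cells, while the epithelial adhesion gene Epcam had one in 81.2% and 92.9%.

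The rule enzymes took between 2.07% and 33.6% of a cell's UMIs, with a median of 10.4%, and 10.7% of all UMIs of the acinar-like cells together. Ctrb1 alone held 8.57%. In the other cells the median was 0.0148% and the highest value 1.99%. Just outside the limit lay cells at 1.99%, 1.95% and 1.93%, and just inside it cells at 2.07%, 2.21% and 2.23%. Only 9 cells lay between 1% and 2% and 14 between 2% and 3%, against 3835 cells below 0.1%. Acinar-like cells held a median of 12552 UMIs and 2639 genes, and other cells 11219 UMIs and 3227 genes. Mitochondrial UMIs had a median of 2.11% and 3.62%, and of 2.72% and 3.63% when UMIs of 50 acinar genes were left out of the total.

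**Figure D1:**
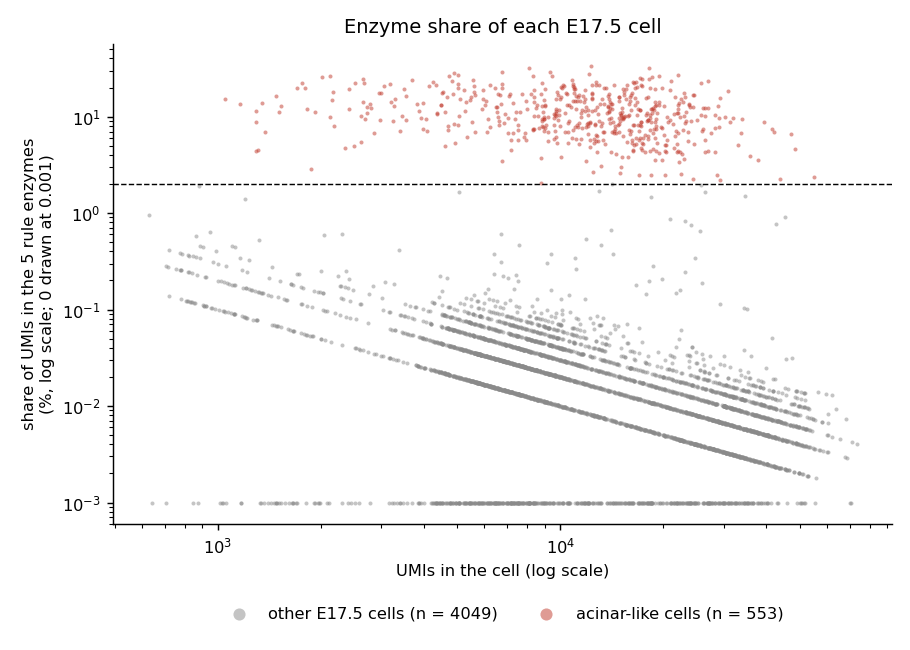
Each point is 1 E17.5 cell that passed the filter, with its UMIs on the x axis and the percentage of those UMIs in the 5 enzymes of the rule on the y axis (both log scales, 0 drawn at 0.001), and the dashed line marks 2%. The 553 acinar-like cells form a band with a median of 10.4%, set apart from the other cells, whose median is 0.0148%, by a thinly filled zone around the line; the sloping lines at the bottom are cells with 1, 2 or a few enzyme UMIs.

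Some acinar-like cells also carried genes of another class. A second class was recorded where a class's marker list reached 0.5% of the cell's UMIs, or the insulin genes 2%, limits set after the data had been seen. By these gates 24 of the 553 cells (4.34%) also carried an intestinal (11 cells), granin (8), mesenchymal (6), insulin (1) or blood (1) signature. Their median depth was 16738 UMIs, against 12370 in the rest. No doublet caller was run, so the part of droplets with more than 1 cell was not tested, and values that move most without these cells are given both ways. Of the E17.5 barcodes 22 also occurred in another library, 3 of them among the acinar-like cells; in those libraries the same barcodes held at most 0.124% enzyme UMIs. A further 84 E17.5 barcodes exceeded the 2% limit but failed the filter on genes or mitochondrial content.

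The DNA in front of the acinar genes is shown because PTF1 sites are defined by their letters. In RefSeq promoters (build GRCm38.p6), the 250 bases before each start were searched on both strands for an E-box of the PTF1 kind (CACCTG, which reads CAGGTG on the other strand, or CAGCTG) and for a TC-box (TTCCCA, or TGGGAA), and for both with starts 8 to 30 bases apart, which leaves no overlap. A promoter was found for 25 of 32 acinar genes, taken as list members with a log2 ratio of at least 5 in these cells. An E-box was present in 20 of them (80%), a TC-box in 16 (64%) and a pair in 6 (24%). Of 27025 gene promoters 30.6%, 24.1% and 1.67% held the same. These counts describe letters in a window and do not show that a factor binds there. The 6 windows with a pair follow, each 5′ to 3′ on the gene's strand with the E-box and TC-box of the pair in capitals.
Ctrb1 (chymotrypsinogen B, chr8:111691177-111691237, minus strand): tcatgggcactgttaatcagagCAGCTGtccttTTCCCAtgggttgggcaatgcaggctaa
Cel (lipase, chr2:28563441-28563512, minus strand): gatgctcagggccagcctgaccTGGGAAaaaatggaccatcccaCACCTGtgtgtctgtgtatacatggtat
Prss1 (trypsinogen, chr6:41458795-41458861, plus strand): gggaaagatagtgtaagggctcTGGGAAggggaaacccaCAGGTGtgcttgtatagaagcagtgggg
2210010C04Rik (a trypsin family gene, chr6:41035649-41035719, minus strand): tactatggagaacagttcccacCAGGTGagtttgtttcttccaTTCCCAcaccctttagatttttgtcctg
Rbpjl (the PTF1 subunit itself, chr2:164403068-164403139, plus strand): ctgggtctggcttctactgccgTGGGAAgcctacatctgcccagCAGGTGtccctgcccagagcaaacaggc
Aqp12 (an acinar aquaporin, chr1:93006261-93006322, plus strand): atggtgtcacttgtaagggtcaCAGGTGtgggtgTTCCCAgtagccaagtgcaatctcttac
The order of the boxes was not the same in all of these: the E-box came first in Ctrb1, 2210010C04Rik and Aqp12 and the TC-box in Cel, Prss1 and Rbpjl, counting the boxes in capitals. The 2210010C04Rik window also holds a second TC-box, left in lower case, just before the E-box and closer to it than the 8 bases of the rule. The starts lay 11 bases apart in Ctrb1, 12 in Aqp12, 17 in Prss1, 21 in 2210010C04Rik and 22 in Cel and Rbpjl. Ptf1a and Cpa1 held a TC-box without an E-box of this kind. The genes with no entry included Cckar, Clps, Erp27, Try10, Try5 and Zg16.

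Proteases made up the largest part of the enzyme RNA. Of the 20 genes of the protease and inhibitor list, all 20 were at least 2-fold higher in acinar-like cells (log2((CPM + 1)/(CPM + 1)) of at least 1), where 4.53% of the 16031 genes with at least 10 UMIs were. Since the rule chose the cells by this contrast, nothing is read from that count. Of all genes at least 2-fold apart 13.8% were higher in acinar-like cells on this scale and 39.6% with edgeR TMM factors, which moved the median of all genes by 0.43 (log2). Per cell, Ctrb1 ranged from 9062 CPM in the lowest cell through a median of 83873 to 267222 in the highest. The carboxypeptidases, which trim peptides from their ends, included Cpa1 at 12207 CPM and Cpb1 at 3102 CPM. Cpa1 had a UMI in every acinar-like cell, while Cpb1 was at 0 in 18 cells and ranged up to 16554 CPM around a median of 3096. Among elastases, which cut after small residues, Cela3b reached 4504 CPM and Cela1 1787 CPM, but Cela2a 130 CPM and Cela3a 4.71 CPM (35 UMIs). Cela2a was at 0 in 206 of the 553 cells.

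Trypsinogens, which activate the other zymogens once in the gut, were led by Prss2 at 4968 CPM and Prss1 at 4036 CPM. Try5 stood at 2357 CPM and Try10 at 2283 CPM. Near-identical trypsin copies can exchange reads, so the level of each copy is uncertain. The inhibitor Spink1, which blocks trypsin inside the cell, was at 1514 CPM (1486 to 1542) against 410 CPM in other cells, a log2 ratio of only 1.88. Serpini2, a serpin of the exocrine pancreas, was at 1016 CPM against 2.19 CPM. Chymotrypsin C (Ctrc), which regulates trypsinogen activation, had 40 UMIs over all acinar-like cells (5.39 CPM, 3.85 to 7.33) and 1 UMI in the others. The protease genes thus spanned from a few CPM to 85679 CPM within the same cells.

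Of 11 lipase, amylase and nuclease genes with enough UMIs 10 were at least 2-fold higher and 1 lower (all genes 4.53% and 28.2%). Pnliprp1, a lipase-related protein, reached 34329 CPM against 76.4 CPM, and Clps, the cofactor colipase, 31960 CPM against 486 CPM. Rnase1 stood at 2803 CPM and Pnliprp2 at 253 CPM. The classical products of the adult gland were low or scarce in these counts. Pnlip, pancreatic triglyceride lipase, had 54 UMIs (7.27 CPM, 5.46 to 9.49) in 8.86% of cells, and the other E17.5 cells had 1. Pancreatic amylase Amy2a5 was at 33.9 CPM (252 UMIs), Amy2a3 at 14.9 CPM and Amy2a2 at 9.83 CPM, Amy2a1 had 0 UMIs, and salivary-type Amy1 was at 19.1 CPM. The amylase copies are also near-identical, so the level of each copy and their sum are uncertain. Their counted UMIs sum to far below the chymotrypsinogen level, but reads that match several copies may be missing from the counts. This was not tested. Pla2g1b, pancreatic phospholipase A2, was lower in acinar-like cells, at 3.77 CPM (28 UMIs) against 11.5 CPM (797 UMIs), and was highest in granin-rich cells at 45.4 CPM.

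Granule, lectin and redox genes were mixed. Of 15 tested 11 were at least 2-fold higher and 1 lower, compared with 4.53% and 28.2% of all genes. Sycn (syncollin, a granule membrane protein) stood at 2389 CPM, Pdia2 (the pancreatic disulphide isomerase) at 740 CPM and Erp27 (an ER protein) at 579 CPM, against 11.4, 3.55 and 1.80 CPM. Zg16, a granule lectin, was at 471 CPM and Reg1 at 648 CPM. Reg1 was at 0 in 120 cells and reached 13651 CPM in the highest, around a median of 221. Gp2, the main granule membrane glycoprotein of the adult gland, had 34 UMIs (4.58 CPM), Reg2 had 1 UMI and Reg3a had 0. Reg3b was lower, with 61 UMIs of which 57 lay in 1 cell. Rab3d, a small GTPase on zymogen granules, was at 122 CPM against 32.7 CPM, while the granule fusion protein gene Vamp8 did not reach a 2-fold difference, with 174 CPM against 205 CPM.

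The transcription factors of the acinar programme differed among themselves. Of 18 listed factors 5 were at least 2-fold higher and 4 lower, where 28.2% of all tested genes were lower and the median of all was a log2 ratio of -0.57. Rbpjl stood at 603 CPM (586 to 621) against 3.34 CPM, Ptf1a at 230 CPM against 0.878 CPM, and Bhlha15 (MIST1, which organises the secretory apparatus) at 78.4 CPM (72.1 to 85.0) against 0.878 CPM. In cells thinned at random to 2000 UMIs, Rbpjl was detected in 69.8% of acinar-like cells (65.7 to 73.6) and 0.464% of other cells, Ptf1a in 33.6% (29.6 to 37.8) and 0.206%, and Bhlha15 in 19.03% (15.8 to 22.6) and 0.258%. In mesenchymal-marker cells (median depth 6490 UMIs), which should lack these genes, the thinned shares were 0.778% for Rbpjl, 0.389% for Bhlha15 and 0 of 257 cells for Ptf1a, which allows up to 1.17%. All 3 shares in acinar-like cells were above those in that type. Nr5a2, a nuclear receptor of acinar and gut cells, was higher by a smaller amount, 84.9 CPM against 29.0 CPM, and Xbp1, a factor of the secretory stress response, stood at 341 CPM against 121 CPM.

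RBPJ, which RBPJL replaces as acinar cells mature, did not differ by 2-fold: Rbpj was at 15.5 CPM (12.8 to 18.6) against 19.9 CPM, so its level was well below that of Rbpjl in the same cells. The E proteins that partner PTF1A were low, Tcf12 at 29.1 CPM against 51.1 CPM and Tcf3 at 16.8 CPM against 59.8 CPM. Gata4 stood at 32.2 CPM against 25.3 CPM. Gata6 was lower, 28.3 CPM against 104 CPM, and Mnx1, an early pancreatic and later beta cell factor, had 2 UMIs in acinar-like cells. Pdx1, the shared factor of pancreas and duodenum, was at 22.6 CPM (19.3 to 26.3) against 24.9 CPM, a difference inside the counting interval. Per UMI outside the acinar genes 8 of the 18 factors were at least 2-fold higher and 3 lower, beside 994 and 3226 of all 16031 tested genes.

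Receptors, channels and junction genes set the cells apart too. Of 12 listed 7 were at least 2-fold higher and 2 lower, beside 4.53% and 28.2% of all genes. Cckar, the receptor through which cholecystokinin evokes secretion, stood at 379 CPM (365 to 393) against 1.37 CPM and was detected in 52.4% of thinned acinar-like cells (48.1 to 56.7) against 0.335% of other cells. The muscarinic receptor Chrm3 was at a lower level, 12.3 CPM against 1.80 CPM, and the secretin receptor Sctr had 1 UMI. The aquaporins Aqp12 and Aqp8 stood at 184 CPM each, against 0.734 and 7.21 CPM. The tight junction gene Cldn10 reached 608 CPM against 9.06 CPM. Of the connexins that couple acinar cells, Gjb1 was at 34.7 CPM against 28.3 CPM and Gjb2 at 17.6 CPM against 4.95 CPM. The bicarbonate cotransporter gene Slc4a4 was lower, with 3.23 CPM against 39.4 CPM.

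Genes of the secretory route were higher by smaller amounts. Of 24 genes for moving proteins into the ER 11 were at least 2-fold higher and 1 (Sec11a) lower. Of 21 ER folding genes 8 were higher and 1 (Ddit3, a stress response factor) lower, where 4.53% and 28.2% of all genes were. The median log2 ratios of these lists were 0.88 and 0.72, against -0.57 over all genes. Sdf2l1, an ER cochaperone, had the largest ratio among the folding genes at 635 CPM against 130 CPM, followed by Dnajc3 at 394 CPM against 104 CPM and P4hb at 819 CPM against 257 CPM. The chaperone Hspa5 (BiP) stood at 1354 CPM against 755 CPM. Among translocation genes, the signal peptidase subunit Spcs3 was at 217 CPM against 54.0 CPM, Tram1 at 371 CPM against 100 CPM and the channel subunit Sec61b at 2383 CPM against 772 CPM. Enzyme RNA lowers every other gene's share of the total. Acinar genes took 20.6% of the UMIs of acinar-like cells and 0.170% of the others. Per UMI outside these genes 16 translocation and 12 folding genes were at least 2-fold higher and none of either list lower. On that scale 994 of all 16031 tested genes were at least 2-fold higher and 3226 lower.

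Amino acid genes followed. Of 12 tested 7 were at least 2-fold higher and none lower, where 4.53% of all genes were higher and 28.2% lower. Cbs, which condenses serine and homocysteine, was at 209 CPM (198 to 219) against 3.47 CPM, Gatm, which makes the creatine precursor and is known for its level in acinar cells, at 246 CPM against 32.0 CPM, and Asns, asparagine synthetase, at 343 CPM against 44.4 CPM. The serine synthesis enzymes Phgdh (646 against 168 CPM), Psat1 (36.9 against 17.3 CPM) and Psph (103 against 36.7 CPM) were all higher. The transporter gene Slc7a5 was at 46.2 CPM against 10.9 CPM, while its partner Slc3a2 was at 69.9 CPM against 99.2 CPM.

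**Figure D2:**
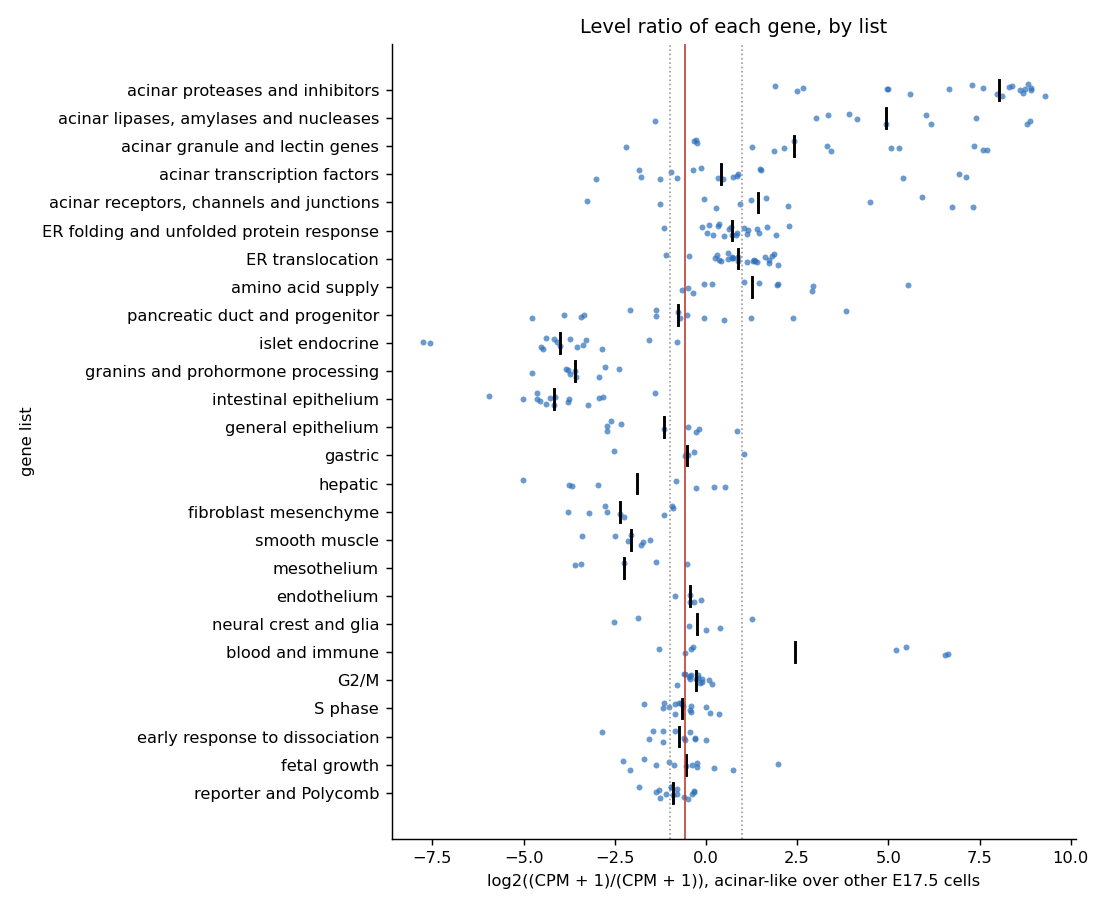
Each point is 1 gene, placed by its log2 level ratio between acinar-like and other E17.5 cells, with the gene lists in rows; black bars are list medians, dotted lines mark a 2-fold difference and the red line the median of all tested genes at -0.57. Acinar enzyme lists reach the right, ER lists sit moderately right of the red line, and gut, granin and islet lists sit left; the 4 blood genes on the right are haemoglobins whose UMIs lie almost wholly in 1 cell.

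By the rule for naming genes, which leaves out predicted (Gm and Rik) genes, the 15 with the highest ratio, all listed acinar genes, included Ctrb1, Cpa1, Try5, Cel, Cela3b, Pnliprp1, Try10, Prss1, Prss2, Cpb1, Serpini2, Try4, Erp27 and Prss3. The 15 lowest were Sst, Ins1, Reg4, Olfm4, Prap1, Cps1, Fabp1, Aadac, Tm4sf20, Tspan8, Chga, Mgam, Lypd8, Lgals4 and Fabp2, genes of hormone cells and gut epithelium. Sst, the hormone somatostatin, was at 9.69 CPM against 2326 CPM, and Olfm4, a gut progenitor gene, had 2 UMIs against 5421. Outside the lists, and chosen after their values were seen, Nupr1 (a stress-induced nuclear protein known in pancreas) had 12776 UMIs in 98.9% of acinar-like cells and 855 UMIs in the others. Serpina6 (corticosteroid-binding globulin, 1698 against 36 UMIs), P2rx1 (an ATP-gated channel, 1550 against 61), Vtn (857 against 31), Gc (1296 against 114), Gnmt (820 against 49) and Reep5 (13943 against 1574) were also much higher although acinar-like cells held fewer UMIs in all (7428006).

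Markers of neighbouring lineages were checked next. Of 15 pancreatic duct and progenitor genes 3 were at least 2-fold higher and 7 lower, against 4.53% and 28.2% over all genes. Muc1, an apical mucin, stood at 98.3 CPM against 5.94 CPM, and the progenitor factors Etv5 and Onecut1 at 18.2 and 4.31 CPM against 2.68 and 1.27 CPM. Sox9 (61.4 against 63.4 CPM) and Hes1 (258 against 183 CPM) did not differ by 2-fold. The duct genes Krt19, Krt7 and Cftr were lower, at 76.5, 21.5 and 2.15 CPM against 830, 228 and 45.5 CPM. The comparison cells here are mostly gut and endocrine cells, so these ratios do not set acinar against duct cells.

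All 15 intestinal genes and all 9 granin and prohormone processing genes were at least 2-fold lower, as were 14 of 15 islet genes, where 28.2% of all genes were. Neurog3, the switch to endocrine fate, had 1 UMI in the acinar-like cells. Of 9 general epithelial genes 5 were lower, including Epcam at 390 CPM against 1952 CPM and Cldn7 at 162 CPM against 1075 CPM, while Krt18 was at 1063 CPM against 595 CPM and Cdh1 at 109 CPM against 131 CPM. All 7 smooth muscle and 7 of 9 fibroblast genes were lower. Against other cells without the mesenchymal, blood and related gates 13 of these 14 were higher (Acta2 by a log2 ratio of 4.14, Col1a1 by 1.82). The mesenchymal gate is built from these same genes. It was applied to the comparison cells only, and the 6 acinar-like cells that passed it were kept. The change was thus favoured in advance, and nothing is read from it. Gastric genes were scarce in both sets, at a summed 4.31 CPM in acinar-like and 8.47 CPM in other cells. Among them 8 of 11 were at 0 in acinar-like cells, and of the 6 with enough UMIs 1 was higher and 1 lower. Of the immune markers Ptprc, Cd52, Fcer1g and Tyrobp were at 0 in acinar-like cells.

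What hormone RNA the cells held lay mostly in few of them. Of the 10 genes with the highest variance over mean, Sct, Ins2, Ghrl, Cck, Nts, Pyy and Gip encode hormones, Tff3 a goblet peptide, and Ctrb1 and Try5 acinar enzymes. Of 7939 Sct UMIs 94.0% lay in 10 cells, and of 1508 Ins2 UMIs 1319 lay in 1 cell. By contrast Sst had 72 UMIs spread over 12.7% of cells with at most 2 in any, and it had a UMI in 14.8% of other cells. Likewise 2975 of 3012 Hbb-bs UMIs lay in 1 cell, the cell that passed the blood gate. Without the 24 cells that passed a second gate Hba-a1 was at a log2 ratio of -0.17, against 5.21 with them. Try5 was variable in another way: its 10 highest cells held 25.4% of 17511 UMIs, up to 1032 in 1 cell, while 97.3% of cells had at least 1.

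Acinar RNA was also present outside the acinar-like cells. Ctrb1 had a UMI in 72.8% of other cells and in 65.8% of mesenchymal-marker cells, a type that should lack it, at median depths of 11219 and 6490 UMIs. Each gene was expressed per 100 Ctrb1 UMIs in acinar-like cells and in the 4025 other cells below 0.5% enzyme share (6540 Ctrb1 UMIs). Of 42 genes 20 kept the ratio within 2-fold. Cpa1 was at 14.25 and 14.02 per 100 Ctrb1 UMIs (ratio 0.984, 0.918 to 1.05), Try5 at a ratio of 1.07, Cel at 1.09 and Prss2 at 1.39. Ptf1a and Cckar, with 31 and 56 UMIs in those cells, were at 1.76 and 1.94.

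Another 17 genes exceeded the ratio by over 5-fold. Clps was 12.9 times as abundant per Ctrb1 UMI (12.6 to 13.3), Cela1 17.6, Zg16 23.9, Klk1 26.5, Reg1 81.6, Tff2 203 and Spink1 245 times. Their levels differed between the sets of other cells. Clps stood at 1990 CPM in granin-rich cells against 104 to 316 CPM in the insulin-rich, intestinal-marker, mesenchymal-marker and ungated cells, and Cela1 at 117 CPM in granin-rich cells. Spink1 stood at 575 CPM in intestinal-marker cells and 176 CPM in ungated cells, and Reg1 at 69.2 and 98.3 CPM in the same 2 sets. The part of free RNA in these values was not tested, since no profile of empty droplets was used, and Ctrb1, Cpa1, Cel and Prss2 are rule genes whose low share chose these cells. Cela1 is part of the rule. Leaving it out gave the same 553 cells.

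**Figure D3:**
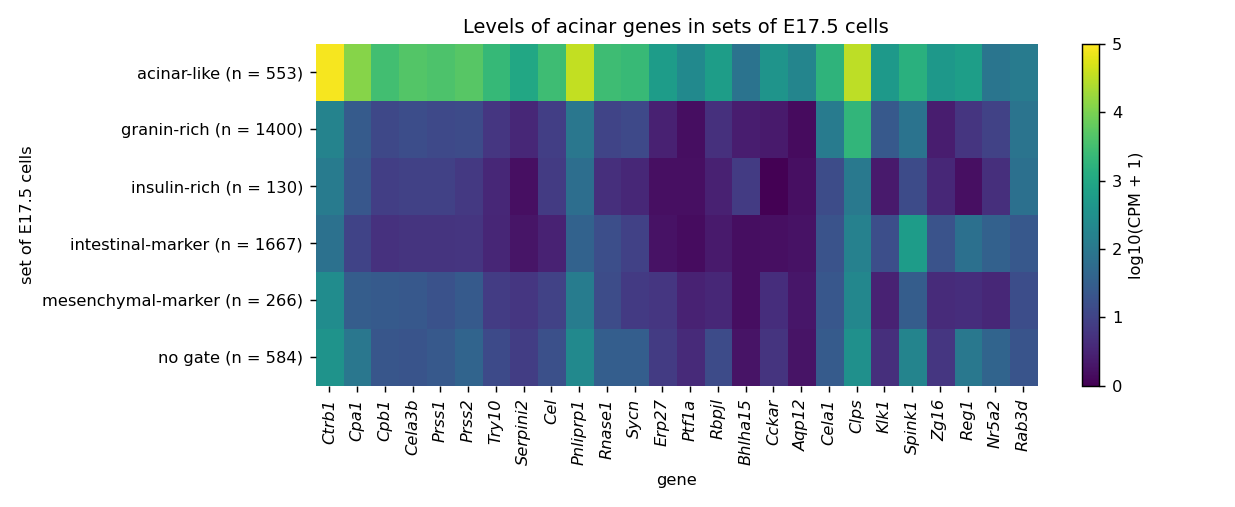
Rows are sets of E17.5 cells with their number, columns are genes, and the colour gives the level as log10(CPM + 1). Genes from Ctrb1 to Aqp12 are high in the top row and far lower below it, at unequal levels (Ctrb1 365 CPM in ungated and 71.7 CPM in intestinal-marker cells). Among the lower rows Clps and Cela1 are high in granin-rich cells (1990 and 117 CPM) and Spink1 in intestinal-marker cells (575 CPM).

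Within the acinar-like cells, enzyme share was used as an axis. The cells were cut into 4 bins of 139, 138, 138 and 138 cells, with 2.07% to 7.09%, 7.14% to 10.4%, 10.4% to 15.2% and 15.3% to 33.6% of UMIs in the rule enzymes. From bin 1 to bin 4 median UMIs went from 15749 to 10855, median genes from 3433 to 2036, and the share of UMIs in acinar genes from 10.8% to 35.5%. Cells passing a second gate numbered 14, 4, 3 and 3. Because enzyme RNA dilutes the rest, levels are given per 1000000 UMIs outside the acinar genes. On that scale 2.55% of 7597 genes with at least 50 UMIs were at least 2-fold higher in bin 4 than in bin 1, and 11% at least 2-fold lower.

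All 18 proteases with enough UMIs were at least 2-fold higher in bin 4 and higher at each step, which the axis itself favours, but by unequal amounts. Ctrb1 went from 39455 to 82298, 134070 and 256783, a 6.51-fold difference. Cpa1 went from 9640 to 14226, 16746 and 27319, only 2.83-fold. Among the steepest were Prss3 at 14.9-fold (12.4 to 17.8), Reg1 at 11.9-fold (10.8 to 13.3), Tff2 at 11.96-fold, Ctrl at 11.4-fold (7.60 to 17.8), Zg16 at 9.59-fold and Cela2a at 8.86-fold. None of these 6 is in the rule. Among the flattest were Amy2a5 at 1.53-fold (1.05 to 2.20) and Rnase1 at 2.10-fold (2.01 to 2.18). The intervals of the steep and flat genes do not overlap, but they cover counting error and not the spread between cells. That spread was wide: Reg1 was at 0 in 120 and Prss3 in 232 of the 553 cells. Summed over its cells, bin 4 was richer than bin 1 in Reg1, Prss3 and Cela2a relative to Rnase1 and Amy2a5.

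Among the regulators, Ptf1a and Nr5a2 did not follow the enzymes, whereas Rbpjl and Bhlha15 were higher in bin 4. Ptf1a was at 310, 300.4, 253 and 281 over the bins, a ratio of 0.905 (0.783 to 1.04). Nr5a2 was at 102, 115, 118 and 89.8, and the secretagogue receptor Cckar at 425, 543, 530.5 and 413, a ratio of 0.970 (0.861 to 1.09). Rbpjl was 1.71-fold higher (1.57 to 1.86), 993 against 581, and Bhlha15 1.64-fold (1.27 to 2.11). Of 16 listed factors 5 were higher in bin 4 and 11 lower, near the 33.0% of all genes that were higher. The median log2 ratio of these factors was -0.24, beside -0.26 over all genes. Among channels, Aqp12 was 6.35-fold higher (5.32 to 7.62) and Aqp8 4.70-fold higher (3.95 to 5.60), while Cldn10 was at 1.12-fold. ER folding genes were all higher in bin 4 (20 of 20, where 33.0% of all genes were), though 1, P4hb at 2.08-fold, reached 2-fold. Their median log2 ratio was 0.45, and that of 24 translocation genes 0.39.

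Genes of division went the other way. All 15 G2/M genes were at least 2-fold lower in bin 4, 14 of them lower at each step. All 16 S phase genes were lower, 5 of them by at least 2-fold. Lower was the common direction: of all 7597 genes 5092 were lower in bin 4, and 11% were at least 2-fold lower. Cdk1, the mitotic kinase, was at 226, 149, 93.4 and 73.7 over the bins, and Mki67 at 198, 184, 119 and 88.8. Epcam was 3.00-fold lower in bin 4 (2.63 to 3.44). The imprinted genes split: Dlk1 was 1.96-fold lower in bin 4 (1.67 to 2.30) and Mest 2.29-fold lower (1.66 to 3.21), whereas H19 was 3.05-fold higher (2.85 to 3.26) and Cdkn1c, an inhibitor of the cell cycle, 2.29-fold higher (1.97 to 2.66). The fetal growth gene Hmga2 was 1.89-fold lower. Without the cells that passed a second gate, H19 was 4.05-fold and Cdkn1c 3.23-fold higher, all 15 G2/M genes stayed lower and the median of the proteases moved from a log2 ratio of 2.36 to 2.31.

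By the naming rule for acinar-like cells above against below the median share, the highest ratios were Reg1, Prss3, Tff2, Ghrl, Ctrl, Sostdc1, Cela2a, Try5, Zg16 and Prss1. Of 1308 Ghrl UMIs in the upper cells 1126 lay in 1 cell. Sostdc1, a secreted BMP and Wnt antagonist, had 243 UMIs above and 86 below. The lowest were Nts, Gip, Ins2, Gcg, Apoa1, Lypd8, Lgals4, Spp1, Plac8 and S100a10. Leaving out the cells that passed a second gate brought most of these low ratios closer to no difference. Ins2 went from a log2 ratio of -3.59 to 0.06, Apoa1 from -3.46 to -0.20, Lypd8 from -2.50 to -0.86 and Lgals4 from -2.28 to -0.71. The other genes of the low list stayed at least 2-fold lower. Gcg went from -3.51 to -1.62. Gip went from -3.84 to -2.04, Plac8 from -2.17 to -1.10 and S100a10 from -2.09 to -1.22, while Nts was at -3.33 and Spp1 (osteopontin, made by duct cells) at -2.29. Among the high genes Ghrl went from 1.88 to 1.11.

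Cycling cells were counted in cells thinned to 2000 UMIs, as those with at least 3 UMIs over 15 G2/M genes. By this count 187 of 536 acinar-like cells cycled, 34.9% (30.9 to 39.1), and 1188 of 3876 other cells, 30.7% (29.2 to 32.1), with overlapping intervals. Among the other cells the share was 53.8% of intestinal-marker, 26.5% of mesenchymal-marker, 42.3% of ungated, 3.06% of granin-rich and 1.55% of insulin-rich cells. At this depth the acinar-like share lay below that of intestinal-marker cells and above that of granin-rich and insulin-rich cells. Its interval overlapped those of ungated (38.1 to 46.5) and mesenchymal-marker cells (21.2 to 32.3). The order against ungated cells turned at 4000 UMIs (48.8% against 48.6%) and without thinning (59.5% against 56.3%). Over the bins of enzyme share the acinar-like share at 2000 UMIs was 54.1% (45.3 to 62.7), 43.1% (34.6 to 51.8), 28.5% (20.9 to 37.0) and 13.4% (8.16 to 20.4). Enzyme RNA takes up part of each cell's 2000 UMIs. Thinned to 2000 UMIs outside the acinar genes, the shares were 58.5%, 50.4%, 29.1% and 17.6%, and 39.5% over all acinar-like cells. Without thinning they were 88.5%, 75.4%, 47.1% and 26.8%. Cycling acinar-like cells held a median enzyme share of 7.98% (quartiles 5.79% and 11.2%) and the others 12.1% (8.46% and 17.2%), and the quartile ranges overlapped. All of them lie above 2% by the rule. Of the 187 cycling cells 30 lay below 5%.

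**Figure D4:**
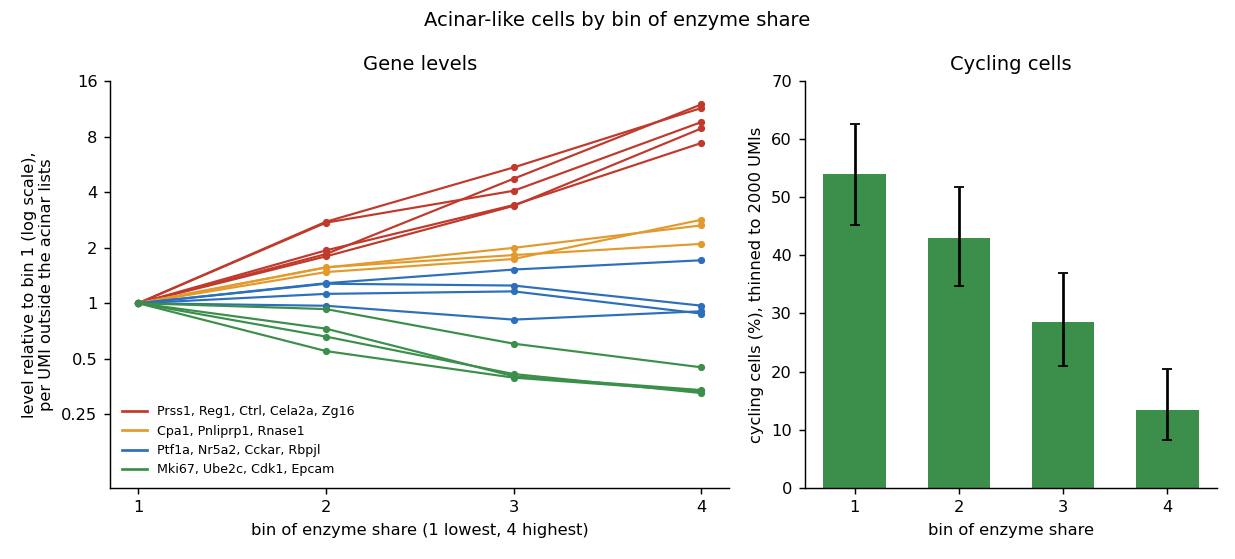
Left, the level of each named gene in 4 bins of acinar-like cells ordered by enzyme share, relative to bin 1 and per UMI outside the acinar genes (log scale, 1 line per gene); right, the share of cycling cells in each bin after thinning to 2000 UMIs, with exact 95% intervals. Prss1, Reg1, Ctrl, Cela2a and Zg16 are 7.38-fold to 11.9-fold higher in bin 4, Ptf1a, Nr5a2 and Cckar stay near 1, and the cycling share goes from 54.1% to 13.4%.

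The reporter and Bmi1 were scarce in these cells. Reporter RNA (eGFP) had 4 UMIs in 4 of the 553 acinar-like cells (0.539 CPM, 0.147 to 1.38) and 81 UMIs in the others (1.17 CPM, 0.926 to 1.45), a difference not detectable at this depth. Bmi1 stood at 8.21 CPM (6.28 to 10.5, 61 UMIs) against 10.5 CPM (9.77 to 11.3), with 19.1 CPM (16.7 to 21.8) in granin-rich and 7.74 CPM (6.95 to 8.60) in intestinal-marker cells. In thinned cells Bmi1 was found in 1.31% of acinar-like cells (0.527 to 2.67) and 3.02% of others (2.50 to 3.61). Unthinned the shares were 10.1% and 15.7%. Of 15 reporter and Polycomb genes 5 were at least 2-fold lower and none higher, near the 28.2% of all genes. Early response genes, which tissue dissociation can raise, were 5 of 12 lower and none higher, with Fos at 515 CPM (499 to 532) against 701 CPM.

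The trypsin genes lie together on chromosome 6 inside the T cell receptor beta locus, and that neighbourhood was examined gene by gene in GRCm38 (GENCODE M21). Together 9 trypsin family genes gave 18131 CPM in acinar-like cells and 38.4 CPM in the others. Gm10334 (2437 CPM) was the steepest of them over the enzyme bins, 16.4-fold per UMI outside the acinar genes, while Try4 was 2.85-fold higher. Of 53 T cell receptor segments in the region, 51 had no UMI in the acinar-like cells. Trbc2, the second constant segment, had 1670 UMIs (225 CPM) in 79.6% of them and 74 UMIs in the others, and Trbc1 had 4. Trbc2 starts 21651 bases after the end of Prss2 on the same strand. T cell markers were absent or rare, with Ptprc and Cd3g at 0 UMIs, Cd3d at 1 and Cd3e at 38. Trbc2 did not follow the enzymes over the bins, at 258, 317, 279 and 287 per 1000000 UMIs outside the acinar genes. Trbc2 was chosen after its values had been seen.

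**Figure D5:**
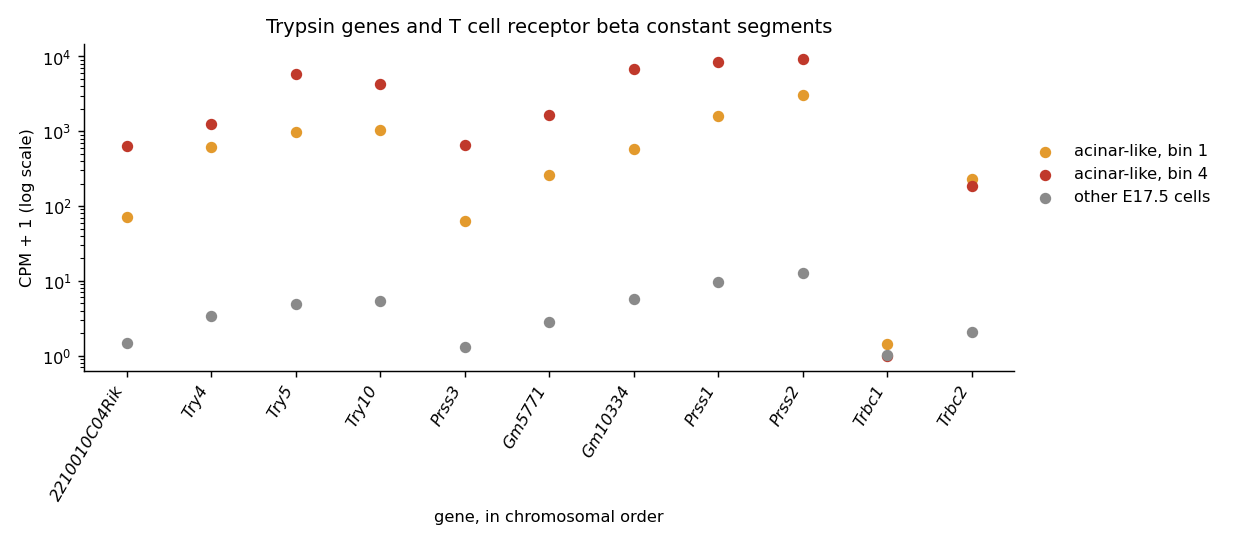
Points give the level (CPM + 1, log scale) of 9 trypsin family genes and of the T cell receptor constant segments with UMIs, in chromosomal order, for acinar-like cells of the lowest and highest bin of enzyme share and for other E17.5 cells. All 9 trypsin genes are higher in bin 4 than in bin 1, Trbc2 is at 230 CPM in bin 1 and 185 CPM in bin 4, and Trbc1 lies near 1.

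No cell of the other libraries met the rule. The highest enzyme share was 0.712% among 4226 E12.5 cells, 0.108% among 3788 adult cells and 0.211% among 3184 irradiated adult cells, and 0 cells allow a share of up to 0.0710%, 0.0792% and 0.0942%. At E12.5, 30 cells reached 0.1%. Chosen by this share, they had Cpa1 at 2139 CPM (2015 to 2269) and Clps at 591 CPM, but Ctrb1 at 19.3 CPM (10 UMIs), and Cela3b, Prss1 and Rnase1 at 0 UMIs. Genes outside the rule were present in them: Ptf1a at 88.9 CPM (65.1 to 119), Rbpjl at 73.4 CPM (52.0 to 101), Sox9 at 483 CPM (425 to 547), Pdx1 at 176 CPM, Nkx6-1 at 135 CPM and Dlk1 at 858 CPM. In the E17.5 acinar-like cells Rbpjl was 603 CPM, Sox9 61.4 CPM, Nkx6-1 5.79 CPM and Dlk1 236 CPM. Age and library cannot be told apart in this comparison. In the adult and irradiated libraries Cpa1, Ptf1a, Cpb1 and Prss1 had 0 UMIs, whereas Clps stood at 573 and 666 CPM, Spink1 at 595 and 318 CPM and Cela1 at 39.1 and 50.2 CPM, all of them among the genes found outside the acinar-like cells at E17.5.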

How the data were processed

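For each library the authors deposited raw UMI counts per gene and barcode as whole numbers, not normalized. Per the file headers the matrices came from software version 3.1.0, and the submitters' processing notes name Cell Ranger 3.1.0 and mm10. The chemistry was the Chromium 3′ kit, per the labels' protocols. UMIs count molecules by their 3′ end, so levels were not divided by gene length. The E17.5 library held 77677622 UMIs over 5232 barcodes, and the 4 libraries 38648331 to 90674425 UMIs. Of 31054 features 31011 matched GENCODE M21 (GRCm38) by ID.

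UMIs were summed over cells and scaled to CPM; ratios, log2((CPM + 1)/(CPM + 1)), were taken for genes reaching 10 UMIs in the acinar-like or the other cells. Shares carry exact Clopper-Pearson and levels exact Poisson 95% intervals, and where 0 cells were seen the limit is 3 counts. Detection and cycling were counted in cells thinned to 2000 UMIs, leaving out 17 acinar-like and 173 other cells below that depth. Other cells were sorted by marker share into mesenchymal, insulin, granin, intestinal and ungated sets (266, 130, 1400, 1667 and 584 cells, with 2 blood-marker cells). No clustering and no doublet caller was used. The genes named are members of 27 lists (330 of 332 symbols in the files), the 15 highest and 15 lowest ratios, the 10 most variable genes and the 10 highest and lowest between acinar-like cells above and below the median enzyme share, with at least 200 UMIs and a UMI in 10% of cells, leaving out mitochondrial, ribosomal, haemoglobin, immunoglobulin, sex-linked and predicted (Gm, Rik) genes. The rule for the cells, the lists and the comparisons were chosen with earlier results of these data known. The level ratio was checked on simulated counts in which 200 genes were changed by known folds. The direction was right for 100% of them, and 94% of the true ratios lay inside the interval. These counts held Poisson error only and no spread between cells, and the other steps were not simulated. Alternatives covered the enzyme limit, cell filter, denominator, edgeR TMM factors (edgeR 4.0.16, R 4.3.3), pseudocount, count minimum, choice of cells and thinning. Figures were drawn with matplotlib 3.10.9, and values computed with scipy 1.17.1, pandas 2.3.3 and numpy 2.4.6 under python 3.11.15. Sequences came from RefSeq promoters, GRCm38.p6. The values of 1 gene are not reported here, although it is counted in the lists.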

Additional observations from a re-analysis of the deposited data

How the results depend on the processing

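No paired analysis was possible because the study has 1 library per group. The number of acinar-like cells depended on the enzyme limit above the main value: 5% gave 10.8% of cells (496) and 10% gave 6.37% (293), while the other 7 choices gave 11.6% to 12.2%. Enzymes outside the rule called 556 cells, 550 of them shared. The counts of 726 higher and 4518 lower genes moved with the scale: TMM factors gave 1451 and 2215, so that 39.6% of such genes were higher in place of 13.8%, a pseudocount of 10 CPM gave 331 and 1484, and one of 0.1 CPM gave 7139 lower. The median of all genes shifted by 0.43 (log2) with TMM. The cycling share of acinar-like cells was 20.3%, 48.8% and 59.5% when thinned to 1000 or 4000 UMIs or not at all, 42.0% and 24.3% with 2 or 5 G2/M UMIs, 20.6% in cells of at least 10% enzyme share, and 39.5% outside the acinar genes, the last added after seeing the data. In other cells it was 20.2%, 37.0%, 44.7%, 35.4% and 22.8% under the first 5 of these. At 1000 UMIs the shares of acinar-like and other cells were nearly equal. Cells with an eGFP UMI were 0% of acinar-like cells at 1000 UMIs and 0.175%, 0.718% and 2.00% of others at 1000, 4000 and all UMIs. Those with a Bmi1 UMI were 3.24% and 10.1% of acinar-like cells at 4000 and all UMIs, and 1.43%, 5.30% and 15.7% of others at 1000, 4000 and all.

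Of 3160 recomputed gene ratios 1605 stayed inside the counting interval of the main ratio, 1541 moved out of it and 14 reversed. Of 297 list medians 224 stayed close to the main value, 69 moved and 4 reversed. A reversal was recorded only where the main ratio was at least 2-fold, which held for 223 of 352 genes. Leaving mesenchymal and other gated cells out of the comparison, which removes the cells that hold these genes, turned Col1a1 (1.82), Col1a2 (1.64), Col3a1 (1.69), Col5a1 (1.11), Dcn (0.67), Lum (0.27), Acta2 (4.14), Tagln (3.44), Myh11 (2.30), Actg2 (2.69), Cnn1 (1.77), Des (2.25) and Myl9 (3.40), with list medians of 1.11 (fibroblast) and 2.69 (smooth muscle). Without second-gate cells Hba-a1 was at -0.17 and the blood list at -0.29; with genes of at least 1 UMI the blood list was at a median of -0.061. With 1 library, no value here can be set against a spread between animals, and counts below about 10 UMIs limit Reg2, Sctr and eGFP.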

Other observations

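Besides the constant segment in the trypsin region, another immune gene was found widely in the acinar-like cells. C1qa, a chain of complement C1q usually made by macrophages, had 2544 UMIs in 87.5% of acinar-like cells, with a median of 304 CPM per cell, and 478 UMIs in 5.98% of other cells. After thinning to 2000 UMIs it was found in 46.1% of acinar-like cells, 24.8% of insulin-rich cells and 0.192% of intestinal-marker cells. In the other libraries C1qa stood at 0.157 CPM (E12.5), 0.815 CPM (adult) and 6.33 CPM (after irradiation). The genes of the other C1q chains, C1qb and C1qc, had 0 UMIs in acinar-like cells and 53 and 50 UMIs in other E17.5 cells. C1qa, C1qb and C1qc were chosen after their values had been seen.

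Nupr1, also chosen after its values had been seen, stood at 1720.0 CPM in acinar-like cells, 55.1 CPM in mesenchymal-marker cells, 45.4 CPM in ungated cells and 3.16 to 6.58 CPM in the insulin-rich, intestinal-marker and granin-rich cells. Per UMI outside the acinar genes Nupr1 was 2.06-fold higher (1.96 to 2.17) in the cells of highest than of lowest enzyme share. Sycn stood at 22.4 CPM over all E12.5 cells and at 15.5 CPM in the 30 cells with the highest enzyme share there (8 UMIs).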
